A study of Mus musculus with 12 samples.

Results

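Periportal hepatocyte marker genes were followed across RNA sequencing libraries of liver tumours that diethylnitrosamine had induced in mice. The group holds 10 genes chosen by symbol, namely Cyp2f2, Hal, Sds, Gls2, Hsd17b13, Sult5a1, Etnppl, Aldh1b1, Pigr and Ctsc, of 46095 genes in the count table. All 10 were in the table, and 9 passed the filter on low counts. Of the 12 libraries, 7 came from hepatocellular carcinomas of mice labelled Pck1-null (KO) and 5 from the same kind of tumour in wild-type mice (WT). All mice of both groups had received diethylnitrosamine, a carcinogen that hepatocytes turn into a DNA-alkylating agent. Pck1 encodes the cytosolic phosphoenolpyruvate carboxykinase, which commits oxaloacetate to glucose synthesis and is itself most abundant in periportal hepatocytes. The labels give no strain, sex, age, dose or time, do not describe the null allele or the cells it covers, and name the tissue only as liver. Nor do they tie each library to its own animal. The p-values therefore cover the variation among these samples, which may in part be technical.

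Blood enters a liver lobule at the portal vein, rich in oxygen and nutrients, and leaves at the central vein. Hepatocytes near the portal vein carry out urea synthesis, amino acid breakdown, glucose output and protein secretion. Those around the central vein, where Wnt signals are strong, make glutamine and metabolise many foreign compounds. Periportal markers are usually low where beta-catenin is active, and Glul, the glutamine synthetase, is the classical marker of the opposite, pericentral zone.

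The total count lay between 17462102 and 23663506 in 7 shallower libraries (4 KO, 3 WT). It lay between 43071365 and 46747125 in 5 deeper ones (3 KO, 2 WT). The deeper libraries were KO replicates 4, 5 and 6 and WT replicates 2 and 5. Pck1 reached 6.79 to 10.19 log2 CPM in KO libraries and 10.05 to 12.51 in WT libraries (CPM, counts scaled to library size). KO replicate 3, at 10.19, thus lay above WT replicate 4, at 10.05, and Pck1 reads remained in every KO library. Xist, which silences an X chromosome in female cells, exceeded 10 CPM in 5 of 7 KO libraries and 1 of 5 WT libraries, so genotype and Xist class were partly confounded. The 10 hepatocyte markers summed to between 104000 and 227000 CPM in KO and between 95700 and 291000 CPM in WT, so both groups carried abundant hepatocyte RNA. In bulk tissue, fewer cells of a type and less RNA per cell cannot be told apart.

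Most of the periportal genes were low in most Pck1-null tumours, for most genes most deeply in KO replicates 1 and 2, while KO replicate 6 resembled the WT libraries. Etnppl had only 2 KO libraries below all of WT, Hsd17b13 had 2 above all of WT, and Ctsc was lowest in KO replicate 3. All 9 tested genes had a negative log2 fold change of KO over WT, between −3.79 for Cyp2f2 and −0.61 for Hsd17b13, where 46.3% of all 14666 genes tested were negative. Their median was −1.93, against 0.03 over all genes tested. Of the 9, 7 had a value of −1 or lower, as did 4.58% of all genes tested. By edgeR's quasi-likelihood test with Benjamini-Hochberg adjustment, 0 of the 9 passed at 0.05, as did 0% of all genes tested. At an unadjusted p under 0.05, 3 of the 9 were lower (Cyp2f2, Pigr and Hal), against 7.44% of all genes tested. After adjustment DESeq2 called 1 of the 9 lower (1.65% of all genes tested), limma-voom with sample weights 5 (8.18%) and limma-voom without weights 0 (0.0273%). At an unadjusted p under 0.05 these tools had 4 of the 9 (8.48%), 9 of the 9 (16.8%) and 6 of the 9 (8.55%) lower.

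**Figure D1:**
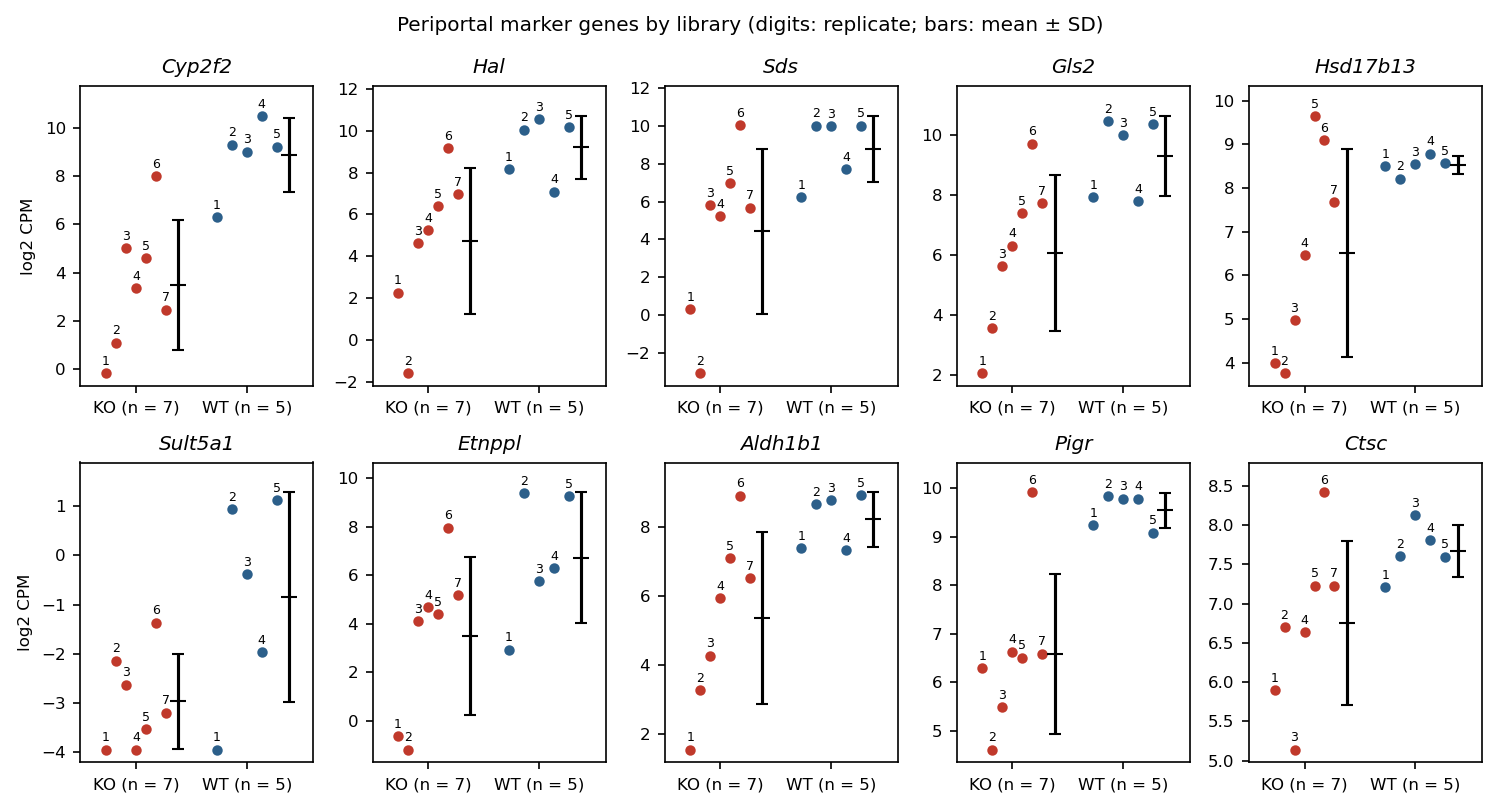
Log2 CPM of the 10 periportal genes in each library, with KO (red, n = 7) left of WT (blue, n = 5). Digits are replicate numbers and bars are mean ± SD. KO replicates 1 and 2 are low in most panels, and KO replicate 6 lies among or near the WT libraries.

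Cyp2f2 is a cytochrome P450 known for activating naphthalene, and it had the lowest fitted value of the group. It lies on chromosome 7 from 27119909 to 27133660 on the plus strand (GRCm38, GENCODE M21). Its level was 0.837, 2.10, 32.5, 10.2, 24.1, 254 and 5.48 CPM in KO replicates 1 to 7, against 79.3, 632, 514, 1440 and 592 CPM in WT replicates 1 to 5. The WT range was reached by KO replicate 6 alone, while the other 6 KO libraries stayed under every WT library. Mean log2 CPM was 3.49 ± 2.70 for the 7 KO and 8.87 ± 1.54 for the 5 WT libraries (SD). Its fitted log2 fold change was −3.79 ± 1.22 (SE), a 13.8-fold lower level, with an adjusted p = 0.224 in edgeR's quasi-likelihood test. Without KO replicate 6, the KO library with the most Cyp2f2, it was −5.70 with an adjusted p = 0.0425. Over all alternatives the adjusted p ran from 0.0113 to 0.43. KO was lower in both depth classes, by −6.06 within the shallower and −2.68 within the deeper libraries (fitted values). An antisense gene overlaps Cyp2f2, and the strand setting of the counting is not given, so their reads cannot be told apart.

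The members varied together across libraries, so the promoter windows of 3 of them are shown, from 250 bases before to 50 bases after the RefSeq start (GRCm38.p6). Cyp2f2 had the lowest fitted value, Hal held the most motif matches, and Hsd17b13 had 2 KO libraries above all of WT. The Cyp2f2 window is chr7:27119705-27120004 on the plus strand, that of Hal chr10:93488518-93488817 on the plus strand, and that of Hsd17b13 chr5:103977339-103977638 on the minus strand. Capitals mark matches, on either strand, to 7 short motifs, none of which overlap in these windows. The motifs were the TATA box (TATAAA), the GC box (GGGCGG), a TCF/LEF motif (ATCAAAG) and the core of a cyclic AMP response element (TGACG). The others were motifs for HNF4 (CAAAGTCCA), for HNF1 (GTTAAT, part of its site) and for C/EBP (TTGCNNAA).
Cyp2f2: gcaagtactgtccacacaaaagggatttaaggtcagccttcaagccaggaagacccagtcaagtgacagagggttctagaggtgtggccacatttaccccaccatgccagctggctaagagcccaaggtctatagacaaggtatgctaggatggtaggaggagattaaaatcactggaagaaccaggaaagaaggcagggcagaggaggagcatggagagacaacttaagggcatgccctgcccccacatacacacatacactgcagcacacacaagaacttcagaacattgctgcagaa
Hal: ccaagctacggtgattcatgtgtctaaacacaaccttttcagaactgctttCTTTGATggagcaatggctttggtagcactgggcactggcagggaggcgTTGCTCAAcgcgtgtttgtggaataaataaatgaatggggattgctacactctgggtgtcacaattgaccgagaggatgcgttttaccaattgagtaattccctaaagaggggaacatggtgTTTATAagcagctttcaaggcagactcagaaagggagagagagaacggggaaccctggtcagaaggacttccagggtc
Hsd17b13: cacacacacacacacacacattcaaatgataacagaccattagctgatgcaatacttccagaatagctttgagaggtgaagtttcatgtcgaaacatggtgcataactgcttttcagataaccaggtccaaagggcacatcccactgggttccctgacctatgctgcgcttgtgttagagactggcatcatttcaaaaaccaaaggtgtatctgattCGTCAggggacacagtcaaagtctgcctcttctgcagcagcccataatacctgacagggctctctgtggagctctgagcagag
Hal held a TCF/LEF match at −199, a C/EBP match at −150 and a TATA box match at −28 from the start. Its TCF/LEF and TATA box matches were the reverse complements (CTTTGAT and TTTATA). Hsd17b13 held a TGACG match at −33, and Cyp2f2 held none of the 7. Of 32851 promoter windows of the same length, 3.73% held the TCF/LEF motif, 10.8% the C/EBP motif, 13.6% the TATA box and 20.8% TGACG. The HNF4 motif was in 0.475% of windows, the HNF1 motif in 7.1% and the GC box in 35.7%. RefSeq windows matched 8 of the 10 genes, all but Sds and Gls2. Among the other windows, GC boxes lay in Etnppl, Aldh1b1, Ctsc and Sult5a1, an HNF1 motif in a window of Etnppl, TGACG in Aldh1b1, and no match in Pigr. A match describes the letters only, and nothing about binding was measured.

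The enzymes of amino acid breakdown (Hal, Sds and Gls2) were lowest in KO replicates 1 and 2, like Cyp2f2. Hal, histidase, removes ammonia from histidine to give urocanate, and it lies on chromosome 10 from 93488768 to 93519304. Its level was 4.73, 0.269, 24.5, 38.3, 84.2, 569 and 125 CPM in KO replicates 1 to 7, against 286, 1060, 1490, 136 and 1160 CPM in WT replicates 1 to 5. The groups overlapped through KO replicate 6, with the other 6 KO libraries under every WT library. The lowest value rested on 5 counts in KO replicate 2, while 46374 counts were found in WT replicate 2. Fitted, the log2 fold change was −2.77 ± 1.20 (SE), with an adjusted p = 0.318 in edgeR's test. Without KO replicate 6 it was −4.16 (adjusted p = 0.0996).

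Sds, serine dehydratase, turns serine into pyruvate and ammonia, and it lies on chromosome 5 from 120476526 to 120483932. Its level was 1.17, 0.0538, 55.5, 37.2, 127, 1060 and 51.4 CPM in KO replicates 1 to 7, against 74.7, 1040, 1020, 212 and 1050 CPM in WT replicates 1 to 5. KO replicate 2 held 1 count, and KO replicate 6 held the highest level of all 12 libraries. KO replicate 5, at 127 CPM, also lay above WT replicate 1, which left 5 of 7 KO libraries under every WT library. Over the 7 KO libraries the standard deviation was 4.39 log2 CPM, against 1.75 over the 5 WT libraries. The fitted log2 fold change, which compares averages on a scale close to linear, was −1.84 ± 1.39 (SE, adjusted p = 0.546 in edgeR's test). The means of log2 CPM differed by −4.37, and KO replicate 6 held 79.5% of the CPM summed over the KO libraries. Without it the fitted value was −3.90, with an adjusted p = 0.133, and the adjusted p over all alternatives lay between 0.0592 and 0.717. Plbd2 on the other strand overlaps Sds.

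Gls2, the liver-type glutaminase that releases ammonia for the urea cycle, lies on chromosome 10 from 128194457 to 128210004. Its level was 4.10, 11.7, 49.0, 79.4, 167, 842 and 213 CPM in KO replicates 1 to 7, against 244, 1410, 1020, 223 and 1320 CPM in WT replicates 1 to 5. Again all KO libraries but replicate 6 were under every WT library, KO replicate 7 only just. KO over WT, the fitted log2 fold change was −2.11 ± 1.02 (SE), with an adjusted p = 0.361 in edgeR's test, and without KO replicate 6 it was −3.27 (adjusted p = 0.105). Spryd4 on the other strand overlaps Gls2.

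The lipid enzymes Etnppl and Hsd17b13 differed in how they varied among WT libraries. Etnppl, which breaks phosphoethanolamine down and so takes it away from phospholipid synthesis, lies on chromosome 3 from 130617448 to 130637521. Its level was 0.586, 0.377, 17.2, 25.7, 20.8, 247 and 35.9 CPM in KO replicates 1 to 7, against 7.57, 667, 53.7, 78.9 and 606 CPM in WT replicates 1 to 5. WT replicate 1 lay within the KO range, so that only 2 KO libraries lay below all WT libraries. The fitted log2 fold change was −2.51 ± 1.33 (SE, adjusted p = 0.397 in edgeR's test), and without KO replicate 6 it was −4.07 (adjusted p = 0.126). It was −1.79 within the shallower and −2.71 within the deeper libraries.

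Hsd17b13, a lipid droplet protein of the 17-beta-hydroxysteroid dehydrogenase family, lies on chromosome 5 from 103955440 to 103977410 on the minus strand. Its level was 15.8, 13.5, 31.3, 87.8, 803, 544 and 204 CPM in KO replicates 1 to 7, against 361, 296, 375, 439 and 376 CPM in WT replicates 1 to 5. The WT libraries were nearly alike, with a standard deviation of 0.20 log2 CPM against 2.38 in KO, where 5 libraries lay below and 2 above all of WT. KO replicate 5 was the highest of all 12 libraries for Hsd17b13, although its Cyp2f2, at 24.1 CPM, lay below all WT libraries. Its fitted log2 fold change was −0.61 ± 0.88 (SE, adjusted p = 0.771 in edgeR's test), while the means of log2 CPM differed by −2.01. Without KO replicate 5 the fitted value was −1.30 (adjusted p = 0.483), and with the range of the title numbers as a covariate it was −2.11 (unadjusted p = 0.0311, adjusted p = 0.263). By limma-voom it was −2.31 with sample weights (adjusted p = 0.0635) and −2.19 without them (adjusted p = 0.364). It was −2.57 within the shallower libraries and 0.49 within the deeper ones. KO replicates 5 and 6, the 2 above all of WT, were both deeper libraries. Depth classes and single libraries therefore cannot be told apart here. A test of the difference between those classes gave 3.07 ± 1.51 (SE, unadjusted p = 0.068, adjusted p = 0.538 in edgeR's test).

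Aldh1b1 and Sult5a1 belong to the families that clear aldehydes and attach sulfate. Aldh1b1, a mitochondrial aldehyde dehydrogenase, lies on chromosome 4 from 45799022 to 45804604. Its level was 2.85, 9.53, 19.2, 61.5, 137, 483 and 92.5 CPM in KO replicates 1 to 7, against 169, 409, 440, 162 and 491 CPM in WT replicates 1 to 5. Once more only KO replicate 6 reached the WT range. Fitted, the log2 fold change was −1.54 ± 0.94 (SE), with an adjusted p = 0.457 in edgeR's test, and without KO replicate 6 it was −2.64 (adjusted p = 0.125).

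Sult5a1, a cytosolic sulfotransferase on chromosome 8 from 123140192 to 123158315 on the minus strand, was barely detected and did not pass the filter. It held 0, 3, 2, 0, 1, 15 and 1 counts in KO replicates 1 to 7, against 0, 81, 10, 4 and 84 counts in WT replicates 1 to 5. The sum was 22 counts in KO and 179 in WT, and WT replicates 2 and 5 held 81 and 84 of the WT counts. The 0 counts of KO replicates 1 and 4 and of WT replicate 1 allow up to 0.126, 0.0536 and 0.16 CPM (3 counts each, counting error only). Tested with no filter, its fitted log2 fold change was −3.35 with an adjusted p = 0.33 in edgeR's test. Gm20388 on the other strand overlaps it.

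Pigr and Ctsc are markers that hepatocytes share with other cells. Pigr, the receptor that carries polymeric immunoglobulin A across epithelia and into bile, lies on chromosome 1 from 130826684 to 130852249. Its level was 78.0, 24.6, 44.8, 99.0, 91.3, 965 and 96.1 CPM in KO replicates 1 to 7, against 600, 913, 878, 881 and 541 CPM in WT replicates 1 to 5. In 6 KO libraries Pigr lay below every WT library, in a narrower band than the amino acid enzymes, and KO replicate 6 lay above all of WT. Mean log2 CPM was 6.58 ± 1.64 for the 7 KO and 9.54 ± 0.36 for the 5 WT libraries (SD). Its fitted log2 fold change was −1.93 ± 0.78 (SE, adjusted p = 0.293 in edgeR's test). Without KO replicate 6, the library with the most Pigr, it was −3.40 ± 0.36 (SE) with an adjusted p = 0.00424. Over all alternatives the adjusted p ran from 0.00424 to 0.725. Within the shallower and deeper libraries the fitted values were −3.69 and −0.93, and edgeR's test of that difference gave 2.77 ± 1.25 (SE, unadjusted p = 0.0486, adjusted p = 0.521). KO replicate 6, above all of WT, was among the deeper libraries. Cholangiocytes also express Pigr. Of their 8 markers 7 had a positive fitted fold change, 0 had an unadjusted p under 0.05 in edgeR's test, and 5 of those 7 had a lower mean log2 CPM in KO than in WT. Those 8 summed to between 104 and 4670 CPM in KO, highest in KO replicate 5, and between 163 and 1040 CPM in WT, with none at 0 in all libraries. Their part in the Pigr values was not tested.

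Ctsc, a lysosomal dipeptidyl peptidase that activates the serine proteases of granules, lies on chromosome 7 from 88278085 to 88310888. Its level was 59.6, 104, 35.2, 99.7, 150, 342 and 150 CPM in KO replicates 1 to 7, against 147, 195, 280, 224 and 194 CPM in WT replicates 1 to 5. Of the KO libraries 4 lay below all of WT, 2 within the WT range and 1 above it, and the fitted log2 fold change was −0.63 ± 0.44 (SE, adjusted p = 0.514 in edgeR's test). Without KO replicate 6 it was −1.07 (adjusted p = 0.129). It was −1.32 within the shallower and 0.01 within the deeper libraries, so it was near 0 in the deeper ones, which include KO replicate 6. Macrophages and neutrophils also make Ctsc. The 9 Kupffer cell and macrophage markers (5 negative, 4 positive) summed to between 330 and 2920 CPM in KO and between 649 and 1460 CPM in WT. Both they and Ctsc were highest in KO replicate 6. The 10 neutrophil markers were all positive, 9 of them at an unadjusted p under 0.05, where 7.25% of all genes tested were higher at that level. They summed to between 31.4 and 1710 CPM in KO and between 30.7 and 82.4 CPM in WT, highest in KO replicate 3, where Ctsc was lowest. No marker of either list was at 0 in all libraries, and their part in the Ctsc values was not tested.

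**Figure D2:**
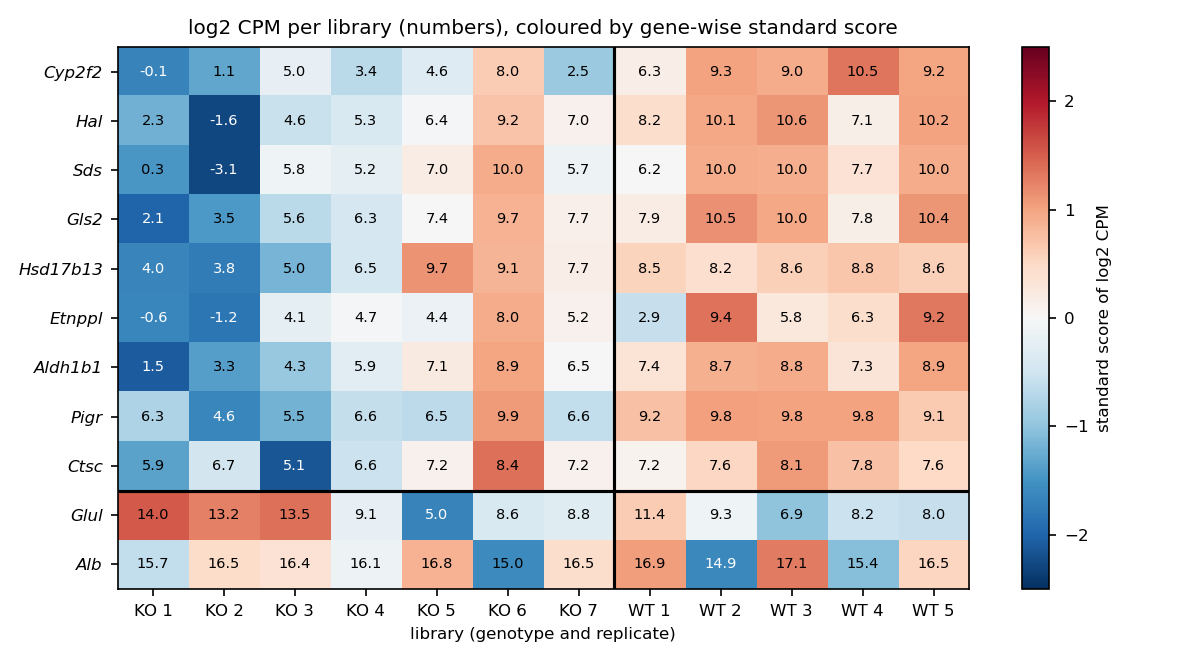
Log2 CPM of the 9 tested periportal genes, Glul and Alb (rows) in each library (columns, KO left of WT), with cells coloured by the standard score within each gene. KO replicates 1, 2 and 3 pair low periportal genes with Glul of 13.20 to 13.96 log2 CPM, while Alb stays between 14.95 and 17.10 in all libraries.

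Levels were set beside each other per kilobase of exon, since the genes differ in length. In KO the median CPM per kilobase was highest for Hsd17b13, at 40.7, followed by Sds at 39.9, Gls2 at 30.9, Aldh1b1 at 26.8, Pigr at 23.7 and Ctsc at 19.5. Hal at 7.19, Cyp2f2 at 5.48, Etnppl at 4.63 and Sult5a1 at 0.0115 were the lowest in KO. In WT the order was Sds at 790, Gls2 at 397, Cyp2f2 at 317, Pigr at 228, Hal at 199, Aldh1b1 at 178 and Hsd17b13 at 174. Ctsc at 36.7, Etnppl at 17.5 and Sult5a1 at 0.185 were the lowest in WT. Cyp2f2 thus stood below Ctsc in KO and well above it in WT by its median. Neighbours in either order overlapped in their ranges over libraries, except in WT, where Hsd17b13 (137 to 204) lay above Ctsc (27.7 to 52.6) and Etnppl (1.68 to 148) above Sult5a1 (0 to 0.555). Cyp2f2, for example, spanned 0.449 to 136 CPM per kilobase in KO and 42.5 to 772 in WT, and Hal spanned 0.0506 to 107 in KO and 25.5 to 281 in WT.

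The spread among KO libraries was itself wide. Of all genes tested, 99.1% had a smaller standard deviation of log2 CPM over the KO libraries than Cyp2f2, and 99.8% a smaller one than Hal. The shares were 98.9% for Gls2, 98.2% for Hsd17b13, 99.7% for Etnppl, 93.7% for Pigr and 82.6% for Ctsc. Several members also spread widely over WT libraries. There the shares were 99.5% for Etnppl, 97.3% for Sds, 95.8% for Cyp2f2, 95.4% for Hal, 93.8% for Gls2 and 80.3% for Aldh1b1. They were 45.4% for Pigr, 42.1% for Ctsc and 18.5% for Hsd17b13. KO replicate 2 was the lowest of the 12 libraries for 5 of the 9 tested genes, KO replicate 1 for 3 and KO replicate 3 for 1. KO replicate 6 was the highest library for 3 of the 9, and it held between 32.0% (Hsd17b13) and 79.5% (Sds) of the CPM summed over KO for these genes.

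That library therefore decided several results. With all 12 libraries the groups separated completely for 0 of the 9 genes (0.58% of all genes tested had every KO library below every WT library). In 5 of the 9, at least 6 of 7 KO libraries lay below all of WT, as they did in 3.07% of all genes tested. KO replicate 6 was the highest KO library for all tested members but Hsd17b13, so it stands out by the members' own values. Without it the groups separated for 5 of the 9 (1.88% of all genes tested). In those 5 it alone had not been below all of WT, so their separation followed from leaving it out. The shares over all genes do not correct for this, nor do the p-values without KO replicate 6. Without KO replicate 6, 8 of the 9 were lower at an unadjusted p under 0.05 (10.7%), and Cyp2f2 and Pigr passed after adjustment (0.353%). Without KO replicates 3, 4 and 6, the KO libraries with the most neutrophil marker RNA, 8 were lower at an unadjusted p under 0.05 (8.8%) and Pigr passed after adjustment (0.0346%). Without WT replicate 1 the groups separated for 1 gene (1.78%).

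Depth class was examined in the same way. Within the shallower libraries 6 of the 9 were lower at an unadjusted p under 0.05 (5.93%) and 0 after adjustment (0%). Within the deeper ones the only member was Sult5a1, which is not among the 9 (7.32%), and 0 passed after adjustment (0.0123%). Sult5a1 passed the filter there with 81 and 84 counts in the WT libraries, against 0, 1 and 15 in KO. Its p thus depends in part on the filter and is no separate support. With depth class as a covariate 6 were lower at an unadjusted p under 0.05 (8.03%) and 0 after adjustment (0.0136%). With the range of the title numbers as a covariate, 8 were (8.95%) and 0 after adjustment (0.0136%). KO replicate 6 also had the highest summed markers of endothelial cells, 657 CPM, where the other 6 KO libraries had 150 to 313 CPM and WT libraries 393 to 613 CPM. Of those 8 endothelial markers all were negative (46.3% of all genes tested) and 3 were lower at an unadjusted p under 0.05 (7.44%). Stellate cell and fibroblast markers were also highest of KO in KO replicate 6, at 556 CPM (204 to 824 in WT). Its hepatocyte markers were the lowest of KO, at 104000 CPM (95700 to 291000 in WT). The part of these cell types in the periportal values was not tested.

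**Figure D3:**
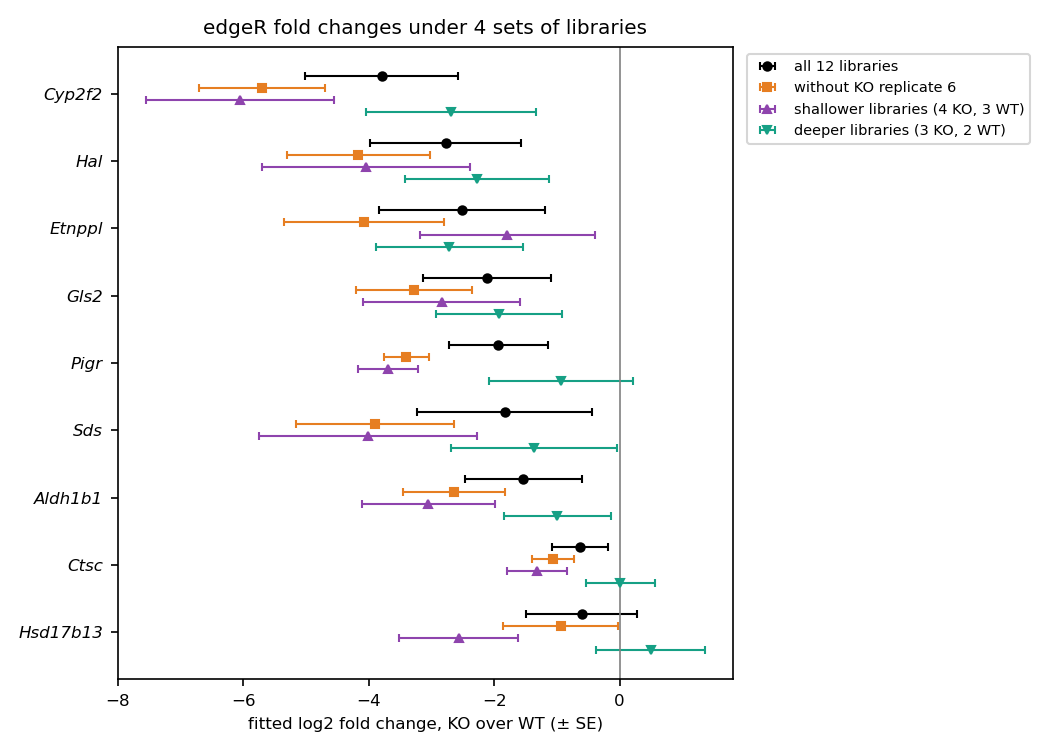
Fitted log2 fold changes of KO over WT (points, with SE bars) for the 9 tested genes with all 12 libraries, without KO replicate 6, within the shallower libraries and within the deeper ones. Points without KO replicate 6 lie left of those with all libraries, and Hsd17b13 and Ctsc reach or cross 0 in the deeper libraries.

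Within Xist classes the means of log2 CPM were lower in KO for all 10 genes. In the Xist-low class (2 KO, 4 WT) the difference was −5.54 for Cyp2f2, −3.62 for Hal, −3.61 for Sds, −2.66 for Gls2, −2.87 for Pigr, −1.39 for Hsd17b13 and −0.70 for Ctsc. In the Xist-high class, with 5 KO libraries and a single WT library, it was −6.78 for Cyp2f2, −2.92 for Hal, −3.71 for Sds and −3.22 for Pigr. With the Xist class as a covariate, 2 of the 9, Cyp2f2 and Pigr, had an unadjusted p under 0.05 (6.18% of all genes tested), at 0.00255 and 0.0271 in edgeR's test. Their adjusted p was 0.223 and 0.381, and 0 passed (0%).

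The members varied together from library to library. Pearson's r of log2 CPM over the 12 libraries was positive for all 45 pairs, from 0.33 (Hsd17b13 with Sult5a1) to 0.98 (Gls2 with Aldh1b1), with a median of 0.81. After adjustment over the 55 relations computed, 40 pairs passed for r and 42 for Spearman's rho (permutation test, 100000 resamples). The resamples shuffled all 12 libraries, so a difference between KO and WT that 2 genes share enters these p-values and those for Glul below. No p was computed within KO, and no share of passing pairs over other genes. The closest pair, Gls2 and Aldh1b1, had r = 0.98 and rho = 0.94 (permutation p = 1e-05, the smallest that these resamples can give, and 3e-05, adjusted 0.000367 and 0.00055). It had r = 0.96 without the 2 libraries farthest from the median of Gls2, 0.99 within KO and 0.99 within the shallower libraries. Hal and Sds had r = 0.97 and rho = 0.87 (permutation p = 2e-05 and 0.00041, adjusted 0.000367 and 0.00412), and r = 0.89 without the 2 farthest libraries. All 45 pairs stayed positive within the 7 KO libraries (0.11 to 0.99), within the 7 shallower libraries (0.28 to 0.99) and without the 2 farthest libraries. The deeper class, with 5 libraries, was too small for a value.

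**Figure D4:**
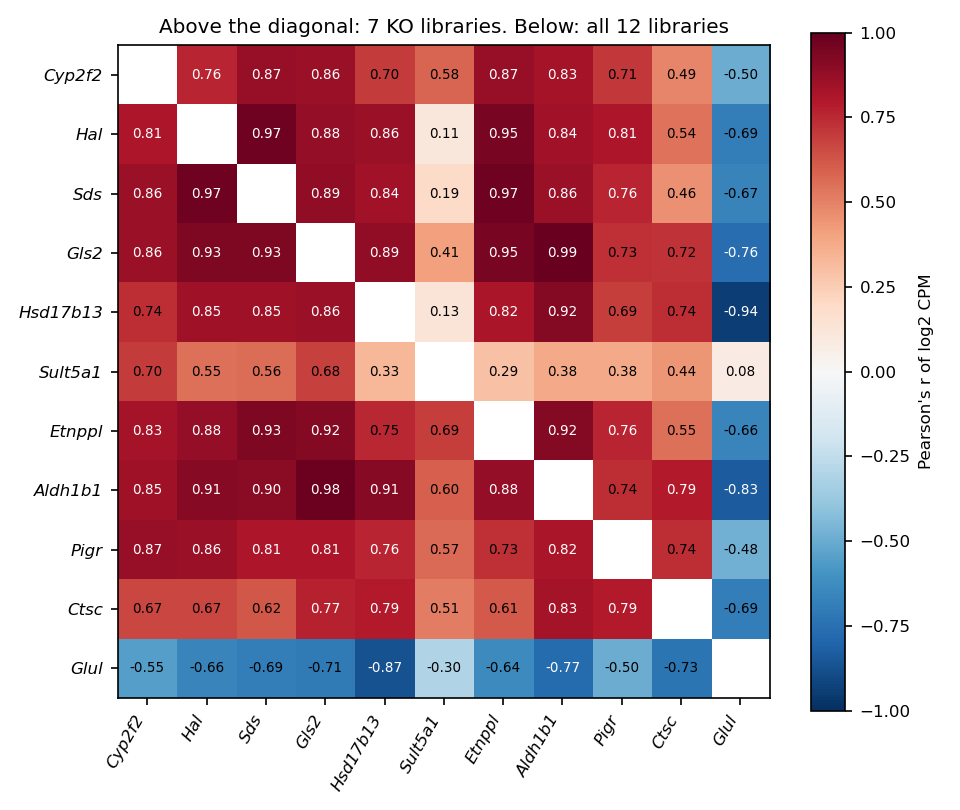
Pearson's r of log2 CPM between the 10 periportal genes and with Glul, over all 12 libraries below the diagonal and over the 7 KO libraries above it. Member pairs are positive in both triangles, weakest with Sult5a1, and relations with Glul are negative over the 12 libraries.

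Glul was at 13.96, 13.20, 13.51, 9.12, 4.99, 8.58 and 8.81 log2 CPM in KO replicates 1 to 7, against 11.43, 9.35, 6.86, 8.15 and 8.04 in WT replicates 1 to 5. The 3 KO libraries with the most Glul thus included the 2 with the least Cyp2f2, Hal, Sds and Gls2. Pearson's r with Glul was negative for all 10 genes over the 12 libraries, from −0.87 for Hsd17b13 to −0.30 for Sult5a1, and 7 of the 10 passed after adjustment for r and 5 for rho. Hsd17b13 had r = −0.87 and rho = −0.85 (permutation p = 0.00063 and 0.00093, adjusted 0.00165 and 0.00495), r = −0.76 without its 2 farthest libraries and −0.94 within KO. For Hal, Sds, Gls2, Etnppl and Ctsc, r was −0.35, −0.38, −0.40, −0.26 and −0.44 without their 2 farthest libraries, so these relations rested in part on those libraries. Cyp2f2 with Glul had r = −0.55 and rho = −0.50 (permutation p = 0.0684 and 0.105, adjusted 0.0738 and 0.113), and r = −0.37 without its 2 farthest libraries. KO replicates 4, 5 and 7 combined 9.12, 4.99 and 8.81 log2 CPM of Glul with 3.36, 4.59 and 2.47 log2 CPM of Cyp2f2, where the lowest WT library had 6.31. In those 3 libraries Pigr was also below all WT libraries.

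**Figure D5:**
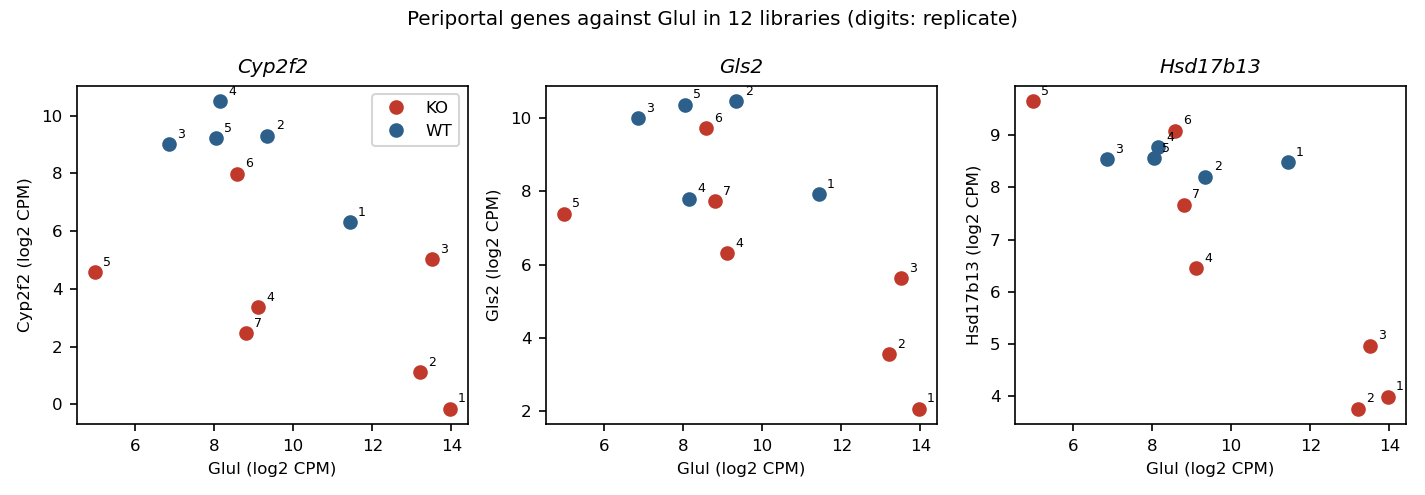
Cyp2f2, Gls2 and Hsd17b13 (log2 CPM, vertical) against Glul (log2 CPM, horizontal) in the 12 libraries, KO in red and WT in blue. KO replicates 1, 2 and 3 sit at the right of each panel, and KO replicates 4, 5 and 7 have low Cyp2f2 without high Glul.

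Most other periportal genes had lower values in KO. The summed level of the pericentral genes was high in KO replicates 1, 2 and 3 and not in the other 4 KO libraries. Of 14 other periportal genes, 13 had a negative fold change, the median was −1.30, and 5 had an unadjusted p under 0.05, against 7.44% of all genes tested on the lower side. Uox, urate oxidase, was at −1.19 ± 0.32 (SE, adjusted p = 0.195 in edgeR's test), with 7.43 to 9.77 log2 CPM in KO and 10.04 to 10.47 in WT. Its groups thus did not overlap, as in 0.58% of all genes tested with KO below WT. Igf1, a growth factor that the liver secretes, was at −2.05 ± 0.73 (SE). All 12 pericentral genes had a positive fold change, with a median of 2.08, and 2 had an unadjusted p under 0.05, against 7.25% of all genes tested on the higher side. Axin2, a feedback inhibitor of Wnt signalling, was at 3.13 ± 1.13 and Rhbg, an ammonia carrier, at 3.05 ± 1.35 (SE). Axin2 lay above all WT libraries in 5 KO libraries and Rhbg in 3, so single genes did not all follow the sum. Summed, the 12 pericentral genes reached 40800, 23700 and 27700 CPM in KO replicates 1, 2 and 3 and 132 to 4520 CPM in the other 4 KO libraries, against 1080 to 8920 CPM in WT. Both lists had been seen in earlier results of these data, so their direction is no independent support.

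The pathways around the members gave mixed values, and no gene of them passed after adjustment. Over all genes tested, 46.3% were negative, and 7.44% were lower and 7.25% higher at an unadjusted p under 0.05. These shares stand beside all counts of genes in the lists below. In histidine breakdown, the 3 enzymes after Hal all had an unadjusted p under 0.05. Uroc1, also among the periportal genes above, hydrates the urocanate that Hal makes and was at −1.49 ± 0.55 (SE). Ftcd, the last enzyme of the route, was at −1.22 ± 0.49 (SE). Amdhd1 averaged 5.86 ± 1.72 log2 CPM in the 7 KO and 8.39 ± 1.03 in the 5 WT libraries (SD). All 6 other tested genes of serine, glycine and threonine breakdown were negative, with 2 at an unadjusted p under 0.05, Shmt1 (−0.72 ± 0.23) and Gcsh (−0.35 ± 0.14). Sdsl, the neighbour and paralog of Sds, was at −0.91 ± 0.76 (SE, adjusted p = 0.585). Among 9 other glutamine and glutamate genes, 6 were negative, and Slc1a5, a glutamine carrier, was at 2.13 ± 0.56 (SE), above all WT libraries in 6 of 7 KO libraries.

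Around the lipid members, Etnk2 and Etnk1, the kinases that make phosphoethanolamine, were at −1.28 ± 0.53 and −0.53 ± 0.25 (SE), among 5 negative of the 7 other genes of that route. Hsd17b11, the lipid droplet paralog of Hsd17b13, was at 1.12 ± 0.46 (SE), with 6 of 7 KO libraries above all WT libraries. Of 8 other lipid droplet genes 5 were negative, with a median of −0.17. Among 11 other aldehyde dehydrogenases 8 were negative (46.3% of all genes tested) and 5 were lower at an unadjusted p under 0.05 (7.44%). They were led by Aldh5a1 of GABA breakdown (−0.68 ± 0.21) and Aldh8a1 (−0.82 ± 0.25). The 9 other sulfotransferases had a median of 0.08, with 0 at an unadjusted p under 0.05. Among 7 other cathepsins Ctsz was at −0.62 ± 0.16 (SE, adjusted p = 0.195 in edgeR's test). Its groups did not overlap, as in 0.58% of all genes tested with KO below WT.

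Of 16 regulators of hepatocyte zonation and of the fasting response, 11 were negative with a median of −0.17, and only Cebpa, a hepatocyte transcription factor, had an unadjusted p under 0.05, at −0.72 ± 0.23 (SE, adjusted p = 0.222 in edgeR's test). The periportal members had a median of −1.93, against −0.15 for the 10 hepatocyte markers, of which 8 were negative. Serpinc1 (antithrombin) was at −0.57 ± 0.19 and Ttr (transthyretin) at −0.60 ± 0.28 (SE). Alb lay between 14.96 and 16.79 log2 CPM in KO and between 14.95 and 17.10 in WT.

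The genes most like the members were found by Pearson's r to the mean of the 9 tested members' standardised log2 CPM over the 12 libraries, as a description. Fn3k, a kinase that repairs glycated proteins, was closest at r = 0.968 and 0.954 within KO, though it reached at most 2.87 log2 CPM in KO and 3.73 in WT. Gldc, the glycine decarboxylase, followed at 0.95, then Aspg at 0.947, Gm36749 at 0.947, Uroc1 at 0.946, Sfxn1, a mitochondrial serine carrier, at 0.943, Arg1, the arginase of the urea cycle, at 0.942, and Sdsl at 0.942. Gm36749 was also near the floor, with at most 1.42 log2 CPM in KO and 2.58 in WT. Fn3k, Aspg and Gm36749 fell to −3.95 log2 CPM, the value of 0 counts, in their lowest KO library. The most inverse genes were Zrsr1 (−0.965), Usp46 (−0.96), Galnt18 (−0.945), Leprotl1 (−0.942) and Gm4202 (−0.934). Galnt18 lay between 3.21 and 6.38 log2 CPM in KO and between 2.40 and 4.24 in WT.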

How the data were processed

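RNA from 12 liver tumours was sequenced after a check of RNA integrity, per the labels' protocols. The authors deposited 1 table of raw, unscaled read counts per gene symbol. The submitters' processing notes name HISAT2 and mm10. The sources used here do not give the counting program, strand setting or annotation. Total counts ran from 17462102 to 46747125. KO replicate 7, whose title has another prefix than the rest of its group, was placed by its genotype label. Replicates were numbered by accession order, and the closest pair of libraries in a group had a chi-square per degree of freedom of 80.6.

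Genes passing filterByExpr (minimum count 10, minimum total 15; 14666 genes) were fitted with edgeR 4.0.16 (R 4.3.3): TMM scaling, robust quasi-likelihood F-tests of KO against WT, no covariates and Benjamini-Hochberg at 0.05 over all genes tested. The SE divides the size of the log2 fold change by the root of F. A prior count of 2 entered log2 CPM. Alternatives were DESeq2 1.42.0, limma 3.58.1 and other scalings, filters, covariates and sets of libraries. Lengths are unions of GENCODE M21 basic exons. On simulated data for KO against WT (14466 genes), edgeR called 41 of 50 genes made 4-fold lower, 12 of 50 made 2-fold lower and 3 that were not changed. The changed genes were drawn at random and varied independently. These counts therefore need not hold for the members, which spread more widely than most genes in KO and varied together.

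Named are all members, Pck1, Xist, Glul, Alb, paralogs, up to 3 genes with the smallest p of each list and the genes most and least like the members. The text names some of these (others are not reported here), and Plbd2, Spryd4 and Gm20388 only as overlapping genes. Members, lists and tests were chosen with earlier results of these data known. Ept1 and Trf stand for Selenoi and Tf. Of the other lists, B and plasma cell, T and NK cell and stellate cell markers had medians of −0.05, 0.54 and −0.39, each with 0 genes at an unadjusted p under 0.05.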

Additional observations from a re-analysis of the deposited data

Results flagged for a closer look

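Pigr in KO replicate 6 stood apart from the other KO libraries, at 9.91 log2 CPM where the other 6 had 4.62 to 6.63. The gap to the nearest library was 0.621 of the group's range, above Dixon's critical value of 0.568 for 7 samples. It was the only library that stood out in this way among 20 groups (10 genes in KO and in WT), and chance flags about 1 in 20.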

How the results depend on the processing

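The 9 tested genes had a negative fold change under every alternative but 1. Within the deeper libraries Hsd17b13 was at 0.49 and Ctsc at 0.01. Of 243 recomputed fold changes, 232 kept their direction and side of the threshold, 9 passed it and 2 turned. Genes called numbered 0 with all libraries, 1 with upper-quartile scaling, no filter or at least 1 CPM in 5 libraries, 2 with the title number range as a covariate, 3 with depth class as a covariate and 2 within the deeper libraries. They numbered 489 by DESeq2, 2138 and 5 by limma-voom with and without sample weights, 6 without KO replicates 3, 4 and 6, and 16 without KO replicates 1 and 2 (chosen after seeing the data). Members called numbered 1 by DESeq2, 5 by limma-voom with weights and 1 without KO replicates 3, 4 and 6. Members at an unadjusted p under 0.05 numbered 9 and 6 by limma-voom with and without weights, and 8 with the title range and 6 with depth class as a covariate. They numbered 6 within the shallower libraries, 1 within the deeper ones (Sult5a1 alone) and 8 without KO replicates 3, 4 and 6. KO replicate 6 was the highest KO library for all tested members but Hsd17b13, and leaving it out gave the upper ends of the next ranges. Leaving out each library in turn gave 0 to 65 genes called, 0 to 2 members called, 1 to 8 at an unadjusted p under 0.05 and 0 to 5 without overlap. It gave 1 without overlap without WT replicate 1, and 1 at an unadjusted p under 0.05 without KO replicate 1, 4, 5 or 7, or WT replicate 2 or 3, where 5.08% to 7.59% of all genes tested were lower at that level. Except where fewer samples were fitted, the cause was not tested. Sult5a1 did not pass the count filter with all libraries. No paired analysis was possible because the labels give the groups no shared replicate numbers.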
